A study of Zea mays with 12 samples.

Results

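Aquaporins and sugar transporters were taken as the 124 genes, of 55529 in the deposited table, whose deposited name or description names an aquaporin, a plasma membrane or tonoplast intrinsic protein, a SWEET, or a sugar, hexose, monosaccharide, sucrose or polyol transporter. Of these, 41 were water channels and 83 were sugar carriers, and the 2 classes are described apart. RNA-seq was performed on whole maize (*Zea mays*) seeds in 12 libraries from 4 groups of 3 biological replicates. The groups were *ereb92*_6h and KN5585_6h, sampled at 6 h after imbibition (HAI), and *ereb92*_0h and KN5585_0h, sampled at 0 HAI. KN5585 is the wild-type inbred line. The *ereb92* seeds carry a CRISPR/Cas9 knockout of *ZmEREB92*, an AP2/ERF transcription factor gene, in the same background, and come from 1 mutant line, *ereb92-6*. Seeds were surface-sterilized and placed on wet filter paper in the dark, and those taken at 0 HAI, before any imbibition, are called dry seeds below. The study asks which genes change when seeds take up water and whether the loss of ZmEREB92 alters that.

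Aquaporins are channels that let water, and in some subfamilies small neutral solutes, pass a membrane passively. Plasma membrane intrinsic proteins (PIPs) sit in the outer membrane of the cell and tonoplast intrinsic proteins (TIPs) in the membrane of the vacuole, and in Arabidopsis TIP3 proteins are known from the protein storage vacuoles of seeds. In a germinating cereal grain the embryo lives on sugars released from its own stores and from the endosperm, and these sugars cross membranes through proton-coupled carriers, such as sucrose transporters and sugar transport proteins (STPs), and through SWEETs, which let sugars move down their gradient.

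The libraries held 12771663 to 15383586 counts. KN5585_6h replicate 1 stood apart, with counts for 23104 genes, where each of the other 11 had counts for 27689 to 32080. The identifier taken as the mutated gene *ZmEREB92*, Zm00001d000339, had 4146, 3115 and 895 counts in *ereb92*_6h, against 205, 71 and 374 in KN5585_6h. It had 126, 17 and 82 counts in *ereb92*_0h, against 96, 25 and 27 in KN5585_0h. The libraries labelled *ereb92*_6h thus held more of this transcript than any other library. According to the paper, *ZmEREB92* is missing from the assembly of B73 RefGen_V4, to which the reads were aligned. Whether this identifier holds the reads of the mutated gene was not tested. An edit of a few bases can leave a transcript in place, so these counts do not check the genotype, and the group names below are those of the labels. Genes of 128 embryo and aleurone markers (oleosins, late embryogenesis proteins and the like) summed to 40058 to 114490 CPM (counts scaled to a library of 1000000 counts), whereas 22 zein genes, which mark the starchy endosperm, summed to 34.7 to 638.5 CPM and 44 genes of green tissue to 268.3 to 546.7 CPM. RNA of the embryo and aleurone was therefore well represented and that of the starchy endosperm was scarce. In whole seeds, fewer cells of a type and less RNA per cell cannot be told apart.

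Most water channels had few counts or none. A filter on low counts set which genes could be tested, and of the 41 genes, 10 had no count in any library, 15 could be tested in at least 1 comparison and 26 in none. By subfamily, 6 of 18 TIPs, 3 of 5 PIP1s, 5 of 9 PIP2s and 1 of 6 nodulin-26-like proteins (NIPs) were tested, and 0 of 3 small basic intrinsic proteins (SIPs). Of the 83 sugar carriers, 13 had no count in any library, 42 could be tested and 41 could not. The words of the definition also take in 21 genes described as nucleotide sugar transporters, and these are separated where it matters. Nucleotide sugar transporters are known for moving activated sugars, not free sugar, into the Golgi and endoplasmic reticulum for wall and glycoprotein synthesis. What each of the 21 genes carries was not tested, and Zm00001d016916 is described as a sugar porter as well. The tested sugar carriers were 10 of 24 monosaccharide transporters, 8 of 19 polyol transporters, 4 of 10 ERD6-like carriers, 3 of 7 sucrose transporters, 1 of 2 SWEETs and 16 of 21 nucleotide sugar transporters. KN5585_6h replicate 1 had counts for 12 water channels and 39 sugar carriers, against 17 to 27 and 42 to 57 in the other 11 libraries.

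Compared per length, on the scale of the deposited FPKM, water channel transcripts far outweighed those of sugar carriers. The summed FPKM of the 41 water channels was 2257 to 3162 in *ereb92*_6h, 1352 to 4117 in KN5585_6h, 4883 to 5498 in *ereb92*_0h and 4109 to 5739 in KN5585_0h. The summed FPKM of the 83 sugar carriers was 211.2 to 258.9 in *ereb92*_6h, 240.5 to 268.6 in KN5585_6h, 212.5 to 227.1 in *ereb92*_0h and 197.0 to 236.2 in KN5585_0h. The water channel sum was thus 5.5 to 17.1 times the sugar carrier sum in the 6 libraries of imbibed seeds and 17.4 to 29.1 times in the 6 libraries of dry seeds. At 6 HAI the water channel sum was lower than at 0 HAI without overlap in *ereb92*, whereas in KN5585 the sum of KN5585_6h replicate 3 lay just above the lowest sum at 0 HAI.

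A single gene made up most of this pool. TIP1-1 (Zm00001d027652, chromosome 1, 10150836 to 10152891, minus strand, B73 RefGen_V4), the general vacuolar aquaporin of plants, gave 47.5% to 76.4% of the water channel FPKM and ranked 37th of all 55529 genes by mean FPKM. Next came a gene described as tonoplast intrinsic protein3 (Zm00001d013956, chromosome 5, 26132024 to 26133292), at rank 83. With 2 more TIP3 genes, Zm00001d032610 (chromosome 1, 232015864 to 232017318) and TIP3-2 (Zm00001d002952, chromosome 2, 27986031 to 27988042), these 4 TIPs held 88.2% to 95.2% of the water channel FPKM in every library. The leading PIPs were a PIP1 (Zm00001d051403), at a mean of 109.8 FPKM, and PIP2-1 (Zm00001d019563), at 99.9 FPKM, which did not differ from Zm00001d032610 and TIP3-2, at 117 and 115 FPKM, beyond the spread between libraries.

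**Figure D1:**
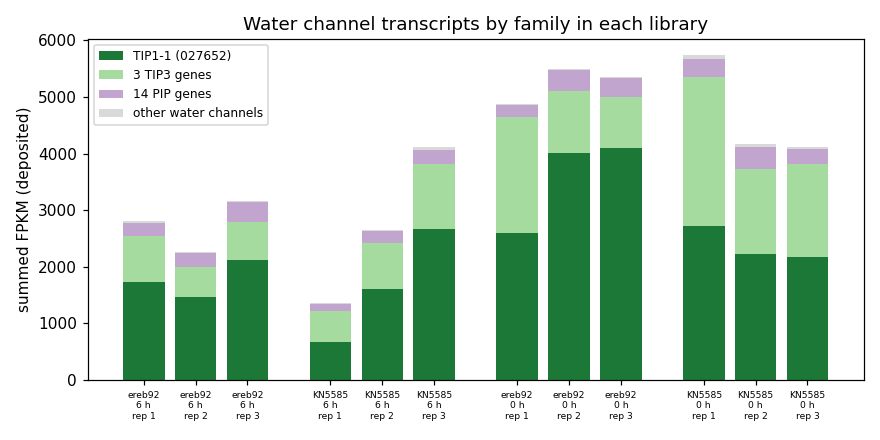
Summed deposited FPKM of water channels in each of the 12 libraries, stacked by TIP1-1, the 3 abundant TIP3 genes, the PIP genes and all other water channels, TIP3.1 among them (numbers in brackets are the last digits of a gene's identifier). The 4 TIPs fill 88.2% to 95.2% of each bar, and the bars of *ereb92*_6h end at 2257 to 3162 FPKM, below the 4883 to 5498 FPKM of *ereb92*_0h.

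Over the first 6 h of imbibition in *ereb92*, the 3 water channels with the largest decreases were TIPs, and TIP3-2 was the one that passed the test. TIP3-2 had 59.2, 74.5 and 53.9 CPM in *ereb92*_6h, against 133.2, 133.7 and 133.4 CPM in *ereb92*_0h. Every imbibed library was below every dry one. Its level fell by 1.07 on the log2 scale (SE 0.199, adjusted p = 0.0167). Here and below the adjusted p comes from the quasi-likelihood test of edgeR, corrected over all genes tested by the method of Benjamini and Hochberg, unless DESeq2 is named. A gene was called when its adjusted p was below 0.05 and it differed at least 2-fold. This made 1 of 15 tested water channels lower (6.67%) and 0 higher, where 0.106% of all 23575 genes tested were called lower and 5.87% higher. The size of the TIP3-2 change was close to the 2-fold limit: leaving out *ereb92*_6h replicate 1 or 3, or any 1 of the *ereb92*_0h replicates, ended the call (log2 fold changes of -1.21 to -0.97, adjusted p of 0.0295 to 0.0683 over the 6 omissions), and a fit over all 12 libraries gave an adjusted p of 0.192.

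The other abundant TIPs had lower values at 6 HAI and missed the threshold. TIP1-1 had 1951, 1692 and 2491 CPM in *ereb92*_6h, against 3048, 4786 and 4880.4 CPM in *ereb92*_0h. The groups did not overlap, and the log2 fold change was -1.03 (SE 0.322, adjusted p = 0.126). For Zm00001d013956 the values were 778, 468 and 664 CPM in *ereb92*_6h, against 2164, 1019 and 853 CPM in *ereb92*_0h. Here too no imbibed library reached a dry one, although *ereb92*_0h replicate 1 lay far above the other dry libraries (log2 fold change -1.05, SE 0.406, adjusted p = 0.218), and the fold change without that library was closest to zero of the 6 omissions, at -0.57 in a span of -1.31 to -0.57. Zm00001d032610 had 111, 102 and 93.5 CPM in *ereb92*_6h, against 153, 221 and 129 CPM in *ereb92*_0h (log2 fold change -0.69, SE 0.246, adjusted p = 0.18). These 4 TIPs were the 4 water channels that had no overlap downwards, of 15 tested, where 10.1% of all genes had none, and 0 water channels had no overlap upwards, where 14.7% of all genes had none. Of the 6 tested TIPs, 2 of low level had positive log2 fold changes with overlap, TIP3.1 at 0.71 (SE 1.25) and TIP2-2 at 0.12 (SE 0.693). Over the 15 tested water channels the median log2 fold change was -0.24, beside -0.02 over all genes tested. Scaled by total counts alone, unlike the CPM of single genes, the 128 embryo and aleurone markers summed to 40058, 65927 and 62400 CPM in *ereb92*_6h. In *ereb92*_0h these markers summed to 61366, 106735 and 63159 CPM, and their part in the lower TIP levels was not tested.

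Of the PIPs, the channels of the plasma membrane, 0 of the 3 PIP1s and 0 of the 5 PIP2s tested in *ereb92* were called in either direction by edgeR or by DESeq2, and 0 passed an unadjusted p under 0.05 with a 2-fold change. Of all genes, edgeR called 5.87% higher and 0.106% lower, and DESeq2 called 7.21% and 0.323%. At the unadjusted limit 11% were higher and 0.878% lower. Beside these shares, 0 calls among so few PIPs do not set them apart from other genes. PIP2-1 had 147, 179 and 149 CPM in *ereb92*_6h, against 109.6, 218 and 149 CPM in *ereb92*_0h, and these overlapped (log2 fold change 0.02, SE 0.27). PIP2-2 (Zm00001d005421) had 25.3, 30.0 and 35.7 CPM in *ereb92*_6h, against 32.2, 69.8 and 50.7 CPM in *ereb92*_0h (log2 fold change -0.72, SE 0.292, adjusted p = 0.244). The abundant PIP1 Zm00001d051403 ranged from 83.4 to 262 CPM in *ereb92*_6h and from 93.5 to 229 CPM in *ereb92*_0h, a spread within each group that was larger than the difference between their means.

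**Figure D2:**
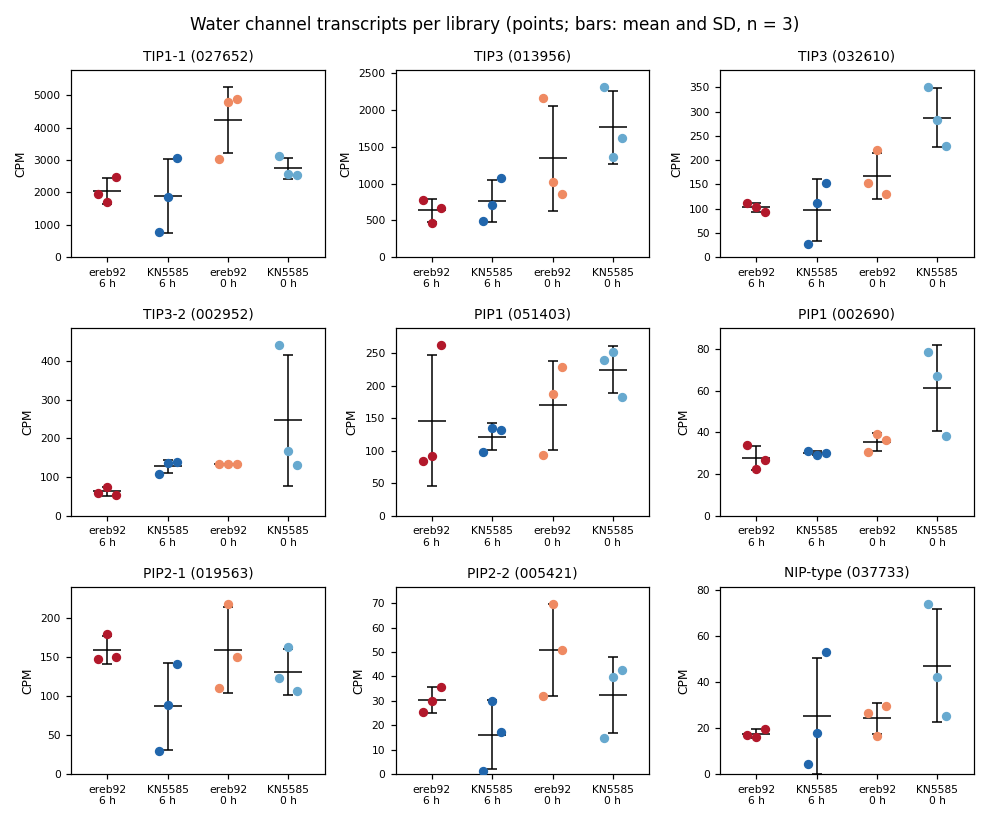
CPM of 9 water channels in each library (points), with the mean and SD of the 3 libraries of a group (bars), for *ereb92* and KN5585 seeds at 6 h and 0 h, with the last digits of each gene identifier in brackets. TIP3-2 lies at 53.9 to 74.5 CPM in *ereb92*_6h and at 107.9 CPM or more in all other groups, and KN5585_6h replicate 1 is the lowest point of its group for TIP1-1, PIP2-1 and PIP2-2.

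In KN5585 the same 6 h of imbibition gave lower values of the same TIPs and of the PIP1s, but no call. The spread between replicates was wider here, with a common dispersion of 0.298 in edgeR, against 0.184 in *ereb92*_6h vs *ereb92*_0h. With edgeR 0 of 13 tested water channels and 0 of 36 tested sugar carriers were called in either direction, where 0.00449% of 22282 genes were called higher and 0% lower, and DESeq2, which called 0.201% of all its genes higher and 0.149% lower, also called 0 of both. At an unadjusted p under 0.05 with a 2-fold change, 3 water channels were lower and 0 higher, where 1.23% of all genes were lower and 1.03% higher. The 3 were Zm00001d032610, Zm00001d013956 and a PIP1, Zm00001d002690. Zm00001d032610 had 27.9, 111 and 153 CPM in KN5585_6h, against 351, 282 and 229 CPM in KN5585_0h (log2 fold change -1.55, SE 0.545, adjusted p = 0.999). Zm00001d013956 had 497, 714 and 1071 CPM in KN5585_6h, against 2320 (replicate 1), 1357 and 1619 CPM in KN5585_0h (log2 fold change -1.20, SE 0.377, adjusted p = 0.999). Neither gene overlapped between the time points. Zm00001d002690 (chromosome 2, 19342470 to 19344477), one of the PIP1s, which in plants often act together with PIP2s, had 31.3, 29.3 and 29.9 CPM in KN5585_6h, against 78.4, 67.1 and 38.4 CPM in KN5585_0h (log2 fold change -1.01, SE 0.296, adjusted p = 0.999). The median log2 fold change of the 13 tested water channels was -0.94, beside -0.02 over all genes, and 4 of them had no overlap downwards and 0 upwards, where 5.91% and 4.58% of all genes had none. KN5585_6h replicate 1 was the lowest library for TIP1-1, which had 759.8, 1867 and 3063 CPM in KN5585_6h, against 3124, 2584 and 2546 CPM in KN5585_0h, so that TIP1-1 overlapped between the time points (log2 fold change -0.52, SE 0.482). Scaled by total counts alone, the 128 embryo and aleurone markers summed to 58890, 74270 and 87817 CPM in KN5585_6h. In KN5585_0h these markers summed to 114490, 82853 and 96684 CPM, and their part in the lower water channel values was not tested.

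Of the 13 water channels tested in both genotypes, 8 had a negative log2 fold change over imbibition in both and 1 a positive one in both. Among all genes tested, 12131 of 23575 were negative in *ereb92* and 11539 of 22282 in KN5585, and the share negative in both was not counted. The difference between the genotypes in the change over imbibition was tested directly, and 0 of 17 tested water channels were called by edgeR, 0 passed an unadjusted p under 0.05 with a 2-fold difference, and DESeq2 called 0. Among all 25567 genes tested for this interaction by edgeR, 0.0313% were called higher and 0% lower, and DESeq2 called 1.32% of its genes higher and 0.0541% lower. The interaction was positive in 12 of the 17 water channels and negative in 5, with a median of 0.60 on the log2 scale, beside 0.08 over all genes. It was positive in all 3 PIP1s and in 4 of 5 PIP2s, and in 3 of 7 TIPs, where it was positive in 13907 of all 25567 genes. The subfamilies hold few genes each, and a difference between them was not tested. For TIP3-2 the interaction was -0.12 (SE 0.524) and for TIP1-1 it was -0.50 (SE 0.599). With SEs of this size, an interaction as large as the imbibition effects themselves was not detectable.

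**Figure D3:**
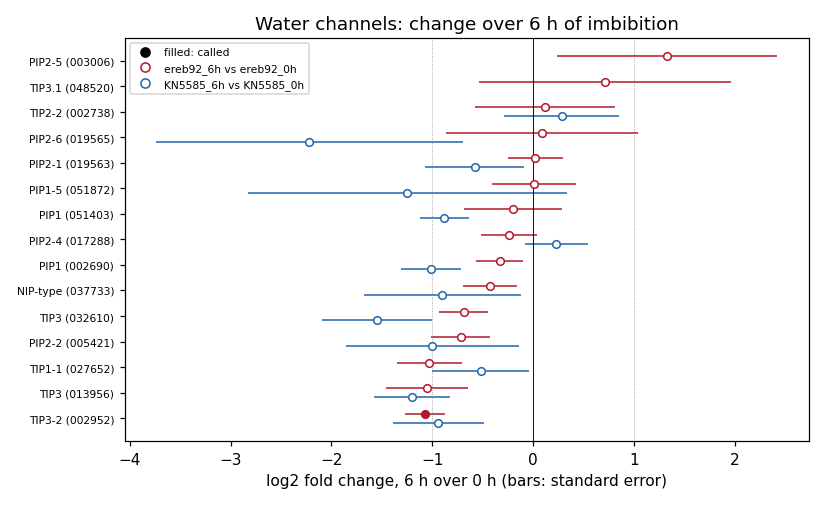
Log2 fold change of 6 h over 0 h, with its standard error, for the 15 water channels tested in *ereb92* (red) and, where tested, in KN5585 (blue), with a filled point where the gene was called. TIP3-2 at -1.07 in *ereb92* is the one filled point, and the TIPs and PIP1s lie at or left of -0.52 in KN5585 apart from TIP2-2 at 0.28.

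Between the genotypes at 6 HAI, edgeR called 0 of 14 tested water channels, where 0.815% of 23066 genes were called higher and 0.143% lower in *ereb92* and the common dispersion was 0.3. At an unadjusted p under 0.05 with a 2-fold change, TIP3-2 was the 1 water channel lower and 0 were higher, where 2.99% and 8.32% of all genes were, and DESeq2 called TIP3-2 alone (adjusted p = 0.0295), where it called 0.872% of all its genes lower and 4.94% higher. TIP3-2 had 59.2, 74.5 and 53.9 CPM in *ereb92*_6h, against 107.9, 135.4 and 139 CPM in KN5585_6h. The groups did not overlap, and the log2 fold change was -1.10 (SE 0.257, adjusted p = 0.0986 by edgeR). TIP1-1 averaged 2045 ± 408 CPM in *ereb92*_6h and 1897 ± 1152 CPM in KN5585_6h (SD, n = 3 each), a log2 fold change of 0.03 (SE 0.531). Without overlap, 2 water channels, both PIP2s, were higher in *ereb92*_6h and TIP3-2 was lower, where 15.9% and 8.67% of all genes were. The abundant PIP2-1 had 147, 179 and 149 CPM in *ereb92*_6h, against 30.0, 88.5 and 141 CPM in KN5585_6h.

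In dry seeds, 0 of 14 tested water channels were called between *ereb92* and KN5585 by edgeR, 0 passed at an unadjusted p with a 2-fold change, and DESeq2 called 0, where edgeR called 0.168% of 22610 genes higher and 0.0973% lower and DESeq2 called 1.11% and 1.09% of its genes. The largest differences by the naming rule were those of a NIP-type aquaporin and of Zm00001d002690. NIPs are known to pass small solutes such as boric acid and silicic acid in other plants. The NIP-type gene (Zm00001d037733, chromosome 6, 135558617 to 135560426) had 26.3, 16.6 and 29.4 CPM in *ereb92*_0h, against 73.9, 41.9 and 25.3 CPM in KN5585_0h, which overlapped (log2 fold change -0.99, SE 0.396, adjusted p = 0.464). Zm00001d002690 had 30.5, 39.0 and 36.3 CPM in *ereb92*_0h, against 78.4, 67.1 and 38.4 CPM in KN5585_0h, overlapping by a single library on each side (log2 fold change -0.82, SE 0.275, adjusted p = 0.374). Zm00001d032610 had 153, 221 and 129 CPM in *ereb92*_0h, against 351, 282 and 229 CPM in KN5585_0h, and was the 1 water channel without overlap downwards, where 7.5% of all genes had none (log2 fold change -0.80, SE 0.263, adjusted p = 0.364).

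Among sugar carriers, 2 genes that were low in dry seeds, an STP and a polyol transporter, rose over imbibition of *ereb92* seeds, and 0 of the 4 most abundant carriers were called. The 2 called genes were 5.13% of the 39 tested, near the 5.87% of all genes that were called higher, and 0 were called lower, where 0.106% of all genes were. The median log2 fold change of the 39 was 0.03, beside -0.02 over all genes tested. Without the nucleotide sugar transporters, 2 of 24 were higher and the median was 0.32.

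STP7 (Zm00001d020463, chromosome 7, 116451759 to 116465310, plus strand) belongs to the proton-coupled monosaccharide carriers, and its namesake in Arabidopsis is a plasma membrane carrier of the wall sugars arabinose and xylose. It had 481, 425 and 232 counts in *ereb92*_6h, against 48, 57 and 37 counts in *ereb92*_0h. In KN5585 it had 38, 15 and 57 counts at 6 HAI, against 21, 45 and 25 counts at 0 HAI. The 3 libraries of *ereb92*_6h were thus far above all 9 others, which lay between 15 and 57 counts. Its level was 25.2 ± 8.34 CPM in *ereb92*_6h and 3.25 ± 1.03 CPM in *ereb92*_0h (SD, n = 3 each), and it rose by 2.99 on the log2 scale (SE 0.382, adjusted p = 0.00306), and the call held in each of 6 fits without 1 library (log2 fold changes of 2.74 to 3.23). In KN5585 its log2 fold change over imbibition was 0.30 (SE 0.732, adjusted p = 0.999).

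Set against KN5585_6h, STP7 in *ereb92*_6h was 3.09 higher on the log2 scale (SE 0.612) with an adjusted p of 0.0692, just short of the threshold. The call appeared when KN5585_6h replicate 3, the highest of its group, was left out (log2 fold change 3.85, adjusted p = 0.0252), in the fit over all 12 libraries (adjusted p = 0.0103) and with DESeq2 (adjusted p = 2.71e-05). That omission was the 1 called of 6, with adjusted p up to 0.227. The interaction of genotype and imbibition was 2.71 (SE 0.744), with an unadjusted p of 0.00321 and an adjusted p of 0.275, and it was called by DESeq2 (adjusted p = 0.0368) and without KN5585_6h replicate 3 (adjusted p = 0.0404). For the interaction this was the 1 call of 12 omissions, with adjusted p up to 0.704. Dry seeds of the genotypes did not differ beyond their spread, with a log2 fold change of 0.47 (SE 0.457).

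The polyol transporter Zm00001d006688 (chromosome 2, 214472464 to 214474594, plus strand) is one of a family of proton-coupled carriers of sugar alcohols, several of which also carry monosaccharides. It had 509, 103 and 105 counts in *ereb92*_6h, against 26, 18 and 20 counts in *ereb92*_0h. In KN5585_6h it had 0, 40 and 26 counts, against 12, 25 and 18 counts in KN5585_0h. All *ereb92*_6h libraries were above all others, and replicate 1 had most of the counts. Over imbibition of *ereb92* this gene rose by 3.54 log2 units (SE 0.717, adjusted p = 0.0236). Without *ereb92*_6h replicate 1 the rise was 2.28 and still called (adjusted p = 0.0313), whereas leaving out any 1 of the *ereb92*_0h replicates ended the call (adjusted p up to 0.0979 over the 6 omissions), and the fit over all 12 libraries gave 0.105. Against KN5585_6h the log2 fold change was 3.24 (SE 1.22, adjusted p = 0.27). A second polyol transporter gene, Zm00001d006697, lies within 200000 bases of it. That neighbour had 0 counts in all of *ereb92*_6h, against 0, 4 and 5 counts in *ereb92*_0h. How alike the 2 genes are, and whether they share reads, was not tested.

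**Figure D4:**
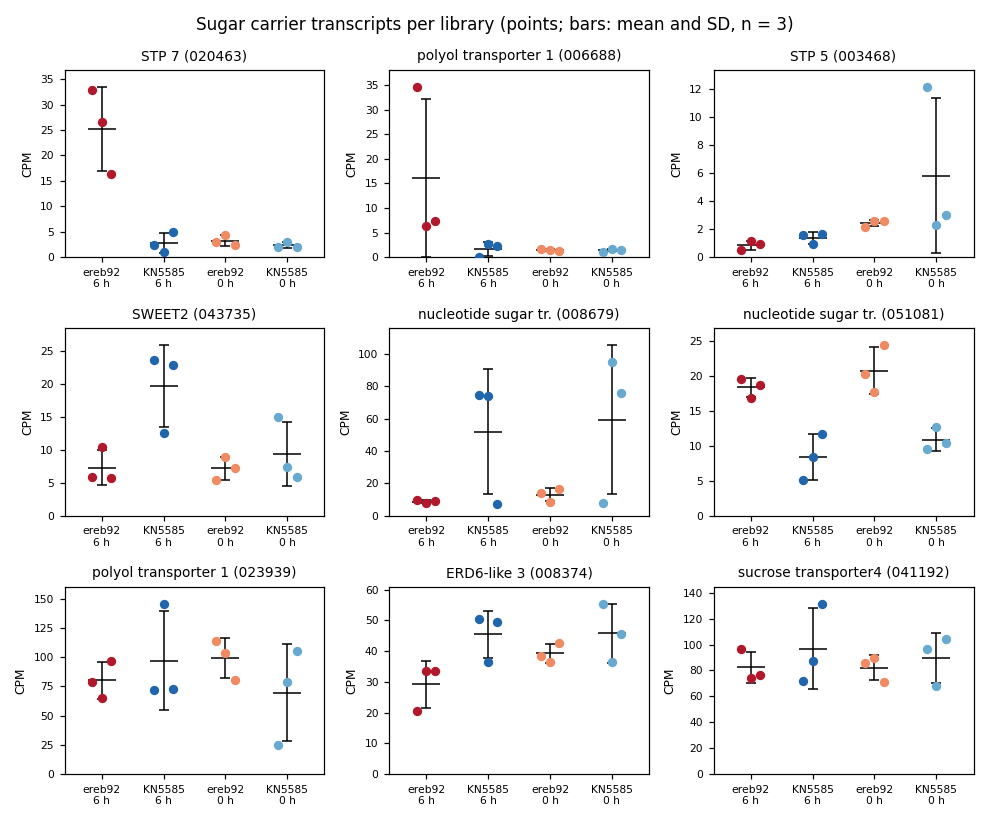
CPM of 9 sugar carriers in each library (points), with the mean and SD of the 3 libraries of a group (bars), for *ereb92* and KN5585 seeds at 6 h and 0 h, with the last digits of each gene identifier in brackets. STP7 (written STP 7) lies at 16.3 to 32.8 CPM in *ereb92*_6h and at 0.967 to 4.98 CPM in the other 9 libraries, and the nucleotide sugar transporter Zm00001d008679 takes a high or a low level within both KN5585 groups.

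Further monosaccharide and polyol carriers of low level were also higher at 6 HAI in *ereb92* without passing the threshold, and they are named here after their values were seen. At an unadjusted p under 0.05 with a 2-fold change, 5 of 39 sugar carriers were higher and 1 was lower over imbibition of *ereb92*, where 11% and 0.878% of all genes were. The 3 that were higher beside STP7 and Zm00001d006688 were an STP5 gene, monosaccharide transporter1 and a polyol transporter. The STP5 gene (Zm00001d003471) had 194, 153 and 80 counts in *ereb92*_6h, against 65, 43 and 59 counts in *ereb92*_0h (log2 fold change 1.38, SE 0.402, adjusted p = 0.0994). Monosaccharide transporter1 (Zm00001d018627) had 42, 49 and 101 counts in *ereb92*_6h, against 3, 9 and 30 counts in *ereb92*_0h (log2 fold change 2.20, SE 0.81, adjusted p = 0.194). Polyol transporter Zm00001d021942 had 42, 25 and 11 counts in *ereb92*_6h, against 6, 1 and 4 counts in *ereb92*_0h (log2 fold change 2.85, SE 0.847, adjusted p = 0.106). In all 3 genes the lowest imbibed library was above the highest dry one, which was so for 7 of 39 sugar carriers, where 14.7% of all genes had no overlap upwards.

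A further 3 genes had too few counts for the test in this comparison, and most of their counts were in imbibed *ereb92* seeds. SWEET10 (Zm00001d021064), of a SWEET clade that moves sucrose in other plants, had 33, 9 and 4 counts in *ereb92*_6h and 0 in all of *ereb92*_0h, at least 5.07-fold higher against a floor of 3 counts per library and at least 2.07-fold without *ereb92*_6h replicate 1, with 0, 0 and 5 counts in KN5585_6h and 0 in all of KN5585_0h. STP1 (Zm00001d053846), a hexose carrier, had 21, 11 and 7 counts in *ereb92*_6h and 0 in all of KN5585_6h, at least 4.02-fold higher against the same floor, or 2.72-fold without *ereb92*_6h replicate 1, with 1, 0 and 0 counts in *ereb92*_0h and 0 in all of KN5585_0h. Polyol transporter Zm00001d021936, a neighbour of Zm00001d021942 on chromosome 7, had 116, 21 and 4 counts in *ereb92*_6h, against 0, 0 and 3 counts in *ereb92*_0h, and 0, 13 and 6 counts in KN5585_6h, against 0 in all of KN5585_0h. In each of these genes *ereb92*_6h replicate 1 had the most counts of all 12 libraries. That library also had counts for the most genes of all, 32080, and for the most members, 27 water channels and 57 sugar carriers. The part of this in the low counts of single genes was not tested. DESeq2, which uses a filter of its own, called SWEET10, STP1 and Zm00001d021936 higher over imbibition of *ereb92* (DESeq2 adjusted p of 0.00854 for SWEET10, 0.044 for STP1 and 0.00128 for Zm00001d021936). These were 3 of the 6 sugar carriers that it called higher there, where it called 7.21% of all its genes higher.

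The sugar carrier with the largest decrease in both genotypes was an STP5 gene, Zm00001d003468 (chromosome 2, 45234206 to 45238299), which stands in a run of 4 STP5 genes that also holds Zm00001d003471. It had 7, 18 and 13 counts in *ereb92*_6h, against 36, 33 and 39 counts in *ereb92*_0h. In KN5585_6h it had 24, 14 and 19 counts, against 130, 35 and 38 counts in KN5585_0h. Imbibed libraries were below dry libraries in each genotype, at log2 fold changes of -1.51 in *ereb92* (SE 0.563, adjusted p = 0.202) and -2.07 in KN5585 (SE 0.781, adjusted p = 0.999). Without KN5585_0h replicate 1, the KN5585 value was -0.93. A nucleotide sugar transporter, Zm00001d037505, had 19.4, 16.8 and 25.3 CPM in *ereb92*_6h, against 34.3, 28.2 and 33.6 CPM in *ereb92*_0h (log2 fold change -0.62, SE 0.229, adjusted p = 0.194).

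In KN5585 over imbibition, at an unadjusted p under 0.05 with a 2-fold change, Zm00001d003468 was the 1 sugar carrier lower and SWEET2 (Zm00001d043735, chromosome 3, 208692615 to 208694505) the 1 higher, of 36 tested. At the same limits 1.23% of all genes were lower and 1.03% higher. SWEET2 is known in Arabidopsis as a carrier of the vacuole membrane. It had 23.6, 12.5 and 22.8 CPM in KN5585_6h, against 14.9, 7.34 and 5.79 CPM in KN5585_0h, with an overlap of 1 library on each side (log2 fold change 1.09, SE 0.453, adjusted p = 0.999). In *ereb92* it had 5.80, 10.4 and 5.62 CPM at 6 HAI, against 5.38, 8.81 and 7.24 CPM at 0 HAI, and the log2 fold change was 0.05 (SE 0.378). At 6 HAI the *ereb92* libraries were all below the KN5585 libraries (log2 fold change -1.50, SE 0.414, adjusted p = 0.145 by edgeR and 0.0493 by DESeq2). The interaction was -1.02 (SE 0.603, adjusted p = 0.784).

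**Figure D5:**
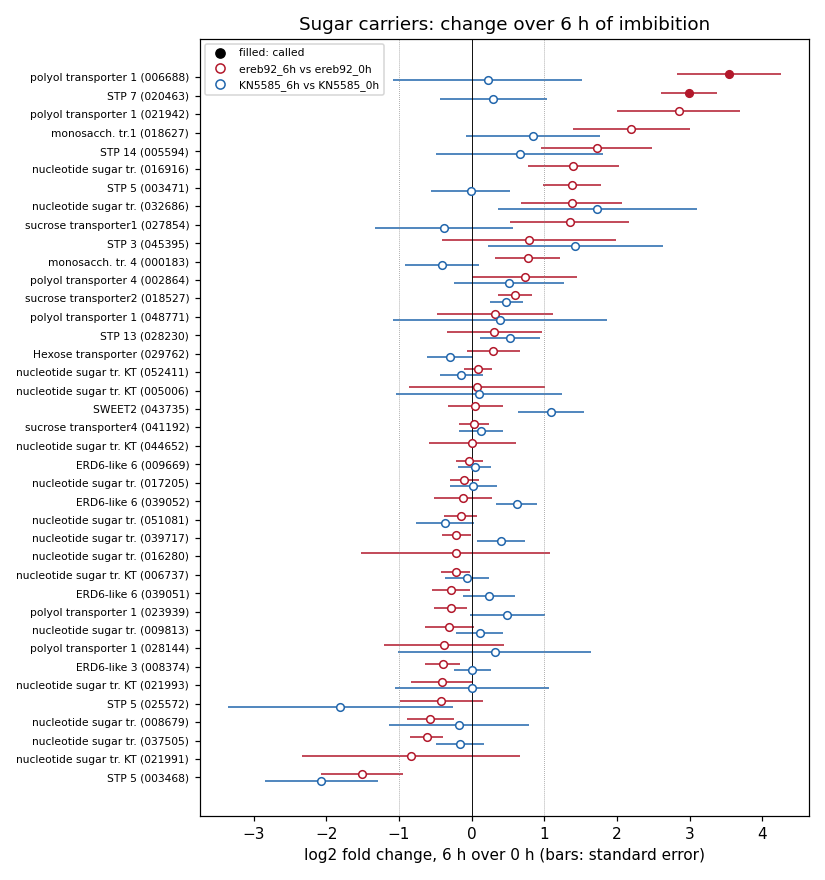
Log2 fold change of 6 h over 0 h, with its standard error, for the 39 sugar carriers tested in *ereb92* (red) and, where tested, in KN5585 (blue), with a filled point where the gene was called. The 2 filled points are STP7 at 2.99 and polyol transporter Zm00001d006688 at 3.54 in *ereb92*, and Zm00001d003468 is the lowest in both genotypes.

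Between genotypes, edgeR called 0 of 40 sugar carriers at 6 HAI and 0 of 35 at 0 HAI, and 0 of 47 in the interaction. Of all genes it called 0.815% higher and 0.143% lower at 6 HAI, 0.168% and 0.0973% at 0 HAI, and 0.0313% and 0% in the interaction. At an unadjusted p under 0.05 with a 2-fold change, 5 were higher and 2 lower at 6 HAI (where 8.32% and 2.99% of all genes were), 0 higher and 1 lower at 0 HAI (where 2.68% and 3.26% of all genes were), and 2 higher and 0 lower in the interaction (where 5.86% and 0.86% were). DESeq2 called 2 higher and 2 lower at 6 HAI, where it called 4.94% and 0.872% of all its genes, 1 higher at 0 HAI, where it called 1.11%, and 1 higher in the interaction, where it called 1.32%. A nucleotide sugar transporter, Zm00001d008679 (chromosome 8, 16965852 to 16973486), had the largest difference between dry seeds by the naming rule. It had 137, 124 and 125 counts in *ereb92*_6h, against 1157, 1148 and 81 counts in KN5585_6h. In dry seeds it had 235, 110 and 247 counts in *ereb92*_0h, against 80, 1438 and 967 counts in KN5585_0h. The 6 *ereb92* libraries and 2 KN5585 libraries, replicate 3 at 6 HAI and replicate 1 at 0 HAI, thus shared a low range, and the other 4 KN5585 libraries were high, so that both levels occurred within each KN5585 group. The log2 fold changes were -2.65 at 6 HAI (SE 0.738, adjusted p = 0.148 by edgeR and 0.00387 by DESeq2) and -2.21 at 0 HAI (SE 0.752, adjusted p = 0.38). Leaving out the low KN5585 library of each comparison, picked by its value, gave -3.13 (adjusted p = 0.0138) and -2.72 (adjusted p = 0.00804). In each comparison this was the 1 call of 6 omissions, with adjusted p up to 0.44 at 6 HAI and 0.62 at 0 HAI.

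Another nucleotide sugar transporter, Zm00001d051081 (chromosome 4, 141308554 to 141313944), had 19.6, 16.8 and 18.6 CPM in *ereb92*_6h, against 5.04, 8.32 and 11.6 CPM in KN5585_6h. In dry seeds it had 20.2, 17.6 and 24.4 CPM in *ereb92*_0h, against 9.47, 12.6 and 10.3 CPM in KN5585_0h. All *ereb92* libraries were above all KN5585 libraries, with log2 fold changes between genotypes of 1.06 at 6 HAI (SE 0.381, adjusted p = 0.247) and 0.91 at 0 HAI (SE 0.244, adjusted p = 0.253). Over imbibition its log2 fold change was -0.15 in *ereb92* (SE 0.226) and -0.36 in KN5585 (SE 0.399). At 6 HAI 6 sugar carriers had no overlap upwards and 5 downwards, where 15.9% and 8.67% of all genes had none, and in dry seeds 5 and 2, where 9.26% and 7.5% had none.

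Of the 4 carriers with the highest mean FPKM, 0 were called in any comparison by edgeR or DESeq2, whereas Zm00001d008679 and SWEET2, next below Zm00001d018527 in mean FPKM, were those that DESeq2 called lower at 6 HAI. The polyol transporter Zm00001d023939 (chromosome 10, 30314944 to 30317071) had the highest mean, at 44.2 FPKM, and was the top sugar carrier in 11 of 12 libraries, with 15.3% to 27.9% of the sugar carrier FPKM. It averaged 80.1 ± 16.1 CPM in *ereb92*_6h, 96.9 ± 42.3 CPM in KN5585_6h, 99.4 ± 17.1 CPM in *ereb92*_0h and 69.7 ± 41.3 CPM in KN5585_0h (SD, n = 3 each), and KN5585_0h replicate 1 was lowest with 24.5 CPM. ERD6-like 3 (Zm00001d008374), of a family whose Arabidopsis members include vacuolar hexose carriers, came next at 22.2 FPKM. It had 20.4, 33.7 and 33.6 CPM in *ereb92*_6h, against 50.4, 36.5 and 49.5 CPM in KN5585_6h, without overlap (log2 fold change -0.71, SE 0.297, adjusted p = 0.322). Sucrose transporters were represented by Zm00001d041192, at 18.1 FPKM, and Zm00001d018527, at 11.2 FPKM. The deposited name and description of each disagree, calling the first sucrose transporter2 by name and sucrose transporter4 by description and the second the reverse. Zm00001d041192 averaged 82.4 ± 12.2 CPM in *ereb92*_6h and 82.1 ± 9.56 CPM in *ereb92*_0h, and 96.7 ± 31.1 CPM in KN5585_6h and 89.6 ± 19.5 CPM in KN5585_0h (SD, n = 3 each). Zm00001d018527 had 44.2, 55.6 and 37.9 CPM in *ereb92*_6h, against 35.6, 32.3 and 24.6 CPM in *ereb92*_0h (log2 fold change 0.60, SE 0.236, adjusted p = 0.23). In KN5585 it had 40.6, 32.5 and 43.3 CPM at 6 HAI, against 29.9, 26.7 and 27.6 CPM at 0 HAI (log2 fold change 0.48, SE 0.227, adjusted p = 0.999), so that this gene was above its dry level without overlap in both genotypes. The nucleotide sugar transporter Zm00001d039717, at 13.2 FPKM, had log2 fold changes within 0.44 of zero in all 4 comparisons.

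Genes that work beside the carriers were counted from lists of words in the descriptions. Proton pumps, which build the gradient that drives proton-coupled uptake, were called in 0 of 33 tested in either direction in *ereb92*_6h vs *ereb92*_0h by edgeR, with 0 also by DESeq2 and at an unadjusted p under 0.05 with a 2-fold change. Of all genes, DESeq2 called 7.21% higher and 0.323% lower, and 11% and 0.878% passed the unadjusted limit. The median log2 fold change of the pumps was -0.31, beside -0.02 over all genes. It was negative in 26 of the 33 pumps, where 12131 of all 23575 genes were negative. Without overlap, 10 pumps were lower and 1 higher, where 10.1% and 14.7% of all genes were. Of 20 tested genes that cleave or make sucrose, 10 had a positive and 10 a negative log2 fold change in that comparison, with a median of 0.05. Without overlap, 4 were higher and 5 lower, where 14.7% and 10.1% of all genes were. By edgeR, 2 of the 20 were called higher and 0 lower (10% and 0%), where 5.87% of all genes were called higher and 0.106% lower. The 2 called genes were the alkaline/neutral invertase CINV2 (Zm00001d050716, log2 fold change 1.52, SE 0.196, adjusted p = 0.00317), which splits sucrose in the cytosol, and a cell wall invertase (Zm00001d016708, log2 fold change 2.11, SE 0.399, adjusted p = 0.0177), which splits it outside the cell. Of 13 other tested sugar carriers outside the definition, 5 had a positive and 8 a negative log2 fold change. Of these 13, 1 was called higher (7.69%, near the 5.87% of all genes) and 0 lower. The called gene was a plastid glucose-6-phosphate/phosphate translocator (Zm00001d006511, log2 fold change 4.14, SE 0.97, adjusted p = 0.0435). Of 4 further genes of the aquaporin superfamily, 0 had enough counts to be tested there.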

How the data were processed

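Poly(A) RNA-seq of whole seeds gave 12 libraries in 4 groups of 3. Per the study's methods, the authors aligned reads with Hisat2 2.0.5 to B73 RefGen_V4 and counted them with featureCounts 1.5.0-p3. Strandedness and the treatment of reads with several matches are not given in the sources used here. The deposited counts are whole numbers per gene, without normalization. The deposited FPKM equal counts per length and library size, at a library size of 0.792 to 1.149 times the total, and were used to compare levels between genes. The authors' fold change and p-value columns were not used. Unused columns per sample numbered 0.

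Counts of 55529 genes were analysed in R 4.3.3 with edgeR 4.0.16 (limma 3.58.1): TMM factors, filterByExpr, and quasi-likelihood tests on the 6 libraries of each of 4 comparisons, with the interaction over all 12. Calls had a Benjamini-Hochberg adjusted p under 0.05 over all genes tested and a fold change of at least 2. CPM of single genes used TMM library sizes of all 12 libraries, with factors of 0.793 to 1.166. Marker sums were scaled by total counts without these factors, so the scales differ. Fold changes against groups at 0 used a floor of 3 counts per library, which covers counting error only. DESeq2 1.42.0, RLE factors, no count filter, a replicate block, 1 fit on all libraries and omission of each library were the alternatives. The smallest p that exact permutation allows for 3 against 3 is 0.1.

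Genes were named in each class if called, among the 4 highest in mean FPKM, among the 3 largest decreases in *ereb92*_6h vs *ereb92*_0h or among the 2 largest changes in each other comparison, at an unadjusted p under 0.05 for the last 2 criteria. Up to 3 genes of each companion list could be named. Genes outside the rule are PIPs, sucrose transporter Zm00001d018527 and the low carriers, which were picked after their values were seen. Companion lists were trimmed by description words, and the members and lists were chosen with earlier results of these data known. Replicate numbers are shared across groups. Deviations of same-numbered libraries correlated at 0.413, 0.271 and 0.206 in *ereb92*_6h vs *ereb92*_0h, and at -0.259 to 0.226 elsewhere. Libraries of unlike numbers were not compared, so these values do not establish a pairing, and neither the labels nor the paper state one. The fitting steps were tested on simulated data. Tandem copies and overlapping genes on opposite strands may share reads. Promoter and protein sequences were not analysed here.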

Additional observations from a re-analysis of the deposited data

How the results depend on the processing

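Log2 fold changes of genes named by the rule were followed through the alternatives only where the main edgeR test gave an unadjusted p under 0.05. None of these changed sign, which that choice made unlikely, and the other fold changes were not followed. In *ereb92*_6h vs *ereb92*_0h, sugar carriers called higher (2) were 4 without the count filter, 6 with DESeq2, 1 in a fit on all 12 libraries and 1 to 4 with 1 library left out. Water channels called lower (1, TIP3-2) were 3 with DESeq2 (TIP1-1 at an adjusted p of 0.0049, Zm00001d013956 at 0.0423 and TIP3-2 at 0.000516), 0 in the fit on all 12 libraries and 0 to 1 with 1 library left out. In *ereb92*_6h vs KN5585_6h, where edgeR called 0, the unfiltered test called 1 sugar carrier higher and 1 lower, DESeq2 called 2 sugar carriers higher, 2 lower and 1 water channel lower, the fit on all 12 libraries called 1 sugar carrier higher, and omissions called 0 to 1 higher and 0 to 1 lower, both without KN5585_6h replicate 3. In *ereb92*_0h vs KN5585_0h, DESeq2 called 1 sugar carrier higher, Zm00001d016280, and omissions 0 to 1 lower, without KN5585_0h replicate 1. In the interaction DESeq2 called 1 sugar carrier higher and omissions 0 to 1, without KN5585_6h replicate 3. The cause of these differences was not tested. RLE factors gave the same calls of members. With the replicate block, 2 sugar carriers were higher and 1 water channel lower in *ereb92*_6h vs *ereb92*_0h, with 0 members elsewhere, so blocking by replicate number changed no call of a member. Over all genes, higher and lower calls in *ereb92*_6h vs *ereb92*_0h were 1385 and 25, against 2120 and 95 with DESeq2, 794 and 9 in the fit on all 12 libraries, 1795 and 49 without the filter, and 1524 and 49 with the block. In the same order of settings, those in *ereb92*_6h vs KN5585_6h were 188 and 33, against 1393 and 246, 752 and 113, 804 and 100, and 0 and 0. Those in *ereb92*_0h vs KN5585_0h were 38 and 22, against 302 and 295, 21 and 14, 129 and 94, and 1 and 0. Those in KN5585_6h vs KN5585_0h were 1 and 0, against 47 and 35, 0 and 0, 10 and 4, and 0 and 0, and those in the interaction were 8 and 0, against 367 and 15 with DESeq2, 105 and 1 without the filter and 0 and 0 with the block. With 1 library left out, higher and lower calls over all genes spanned 742 to 1593 and 5 to 139 in *ereb92*_6h vs *ereb92*_0h, 0 to 509 and 0 to 63 in *ereb92*_6h vs KN5585_6h (0 without replicate 2 of either group, the most without KN5585_6h replicate 3), 3 to 106 and 1 to 105 in *ereb92*_0h vs KN5585_0h, 0 to 1 and 0 to 1 in KN5585_6h vs KN5585_0h, and 0 to 281 and 0 to 3 in the interaction. The count filter left 26 water channels and 41 sugar carriers with no edgeR test, among them SWEET10, which the unfiltered test (adjusted p = 0.039) and DESeq2 called higher in *ereb92*_6h vs *ereb92*_0h.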

Other observations

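The plasma membrane channels PIP2-6 and PIP1-5 and an STP gene, all of low level, were low in the same 3 KN5585 libraries, and these genes were picked after their values were seen. PIP2-6 (Zm00001d019565) had 0, 48 and 9 counts in KN5585_6h, against 2, 168 and 91 counts in KN5585_0h. PIP1-5 (Zm00001d051872) had 0, 89 and 4 counts in KN5585_6h, against 3, 126 and 77 counts in KN5585_0h. An STP5 gene on chromosome 10, Zm00001d025572, had 15, 92 and 0 counts in KN5585_6h, against 2, 249 and 102 counts in KN5585_0h. In each gene KN5585_6h replicates 1 and 3 and KN5585_0h replicate 1 were the 3 lowest KN5585 libraries. The *ereb92* libraries had 11 to 154 counts of PIP2-6, 34 to 82 of PIP1-5 and 52 to 214 of Zm00001d025572. KN5585_0h replicate 1 and KN5585_6h replicate 3 were also the low KN5585 libraries for Zm00001d008679, whereas KN5585_6h replicate 1 was high there with 1157 counts. Fold changes of these genes between groups were not called in any of the 4 comparisons by edgeR.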
